A study of Camponotus floridanus with 24 samples.

Results

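Sets of miRNA entries of the Florida carpenter ant, Camponotus floridanus, have exactly the same read count in every library under different hairpin names. These entries of the deposited counts, called multi-locus miRNAs, are described here. An entry of the first block of each table (the first-listed mature form of a hairpin) was taken when it had at least 10 reads in at least 12 of 24 libraries and when its count equalled, in all 24 libraries, that of at least 1 other such entry. The rule found 44 of the 233 first-listed forms past that filter, out of 918 forms in all, and the 44 entries fell into 18 sets. Each set is treated as 1 profile, and the profiles are numbered from 1, the most abundant, to 18, the scarcest. The members were thus chosen by their measured counts, so which entries match and how abundant they are is a description and was not tested.

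A miRNA is cut as a short duplex from a hairpin transcript, and usually one arm of the hairpin gives the abundant mature form and the other a scarcer form. Animal genomes often carry the same mature sequence at several places, as tandem copies in one cluster or as copies on separate chromosomes. A read from such a sequence matches every copy, so counting alone cannot tell which copy it came from, while the opposite arm often differs between copies. No sequence, strand or position of these hairpins was used here, and the names are not paired with miRNA families. Identical counts would arise if entries drew on the same reads, which was not tested. They do not by themselves show how many gene copies exist or are transcribed.

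The libraries came from 24 single female larvae, sequenced from the whole body at the terminal larval stage, the last before pupation. The labels name no treatment, colony or genotype, and the larvae differ by their measured length, 4648.07 to 7598.06 µm. For display they were ranked by length into the smallest 8 (up to 5502.35 µm), the middle 8 (5690.32 to 6689.42 µm) and the largest 8 (from 6797.79 µm). In whole-body RNA, fewer cells of a type and less RNA per cell cannot be told apart. Libraries held 881734 to 6128791 counted reads, so that 0 reads left room for as much as 0.489 CPM (counts per 1000000 reads) at the greatest depth and 3.402 CPM at the least. These limits cover counting error only. The counts of 1 form also split the libraries into sets of 9 and 15 that the labels do not give, with 881734 to 2114243 and 1638537 to 6128791 reads. That form, outside the 18 profiles, was picked for the widest gap in level between libraries among all tested forms, with at least 5 libraries on each side. The gap was 3.82 log2 units, and what the split stands for was not tested. The larvae measured 4648.07 to 6892.55 µm in the set of 9 and 4783.45 to 7598.06 µm in the set of 15. Slopes by set thus rest on unlike lengths and numbers of larvae. Values by set stand beside the results they touch.

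Most profiles had few entries. Of the 18 profiles, 14 had 2 entries, 2 had 3, 1 had 4 (profile 15) and 1 had 6 (profile 8). The 44 entries lay on 27 scaffolds of the assembly. In 11 profiles the entries were spread over several scaffolds, and in the other 7 all entries lay on a single scaffold. The running numbers in the names, whose link to position the files do not state, were close together in some of those 7 and far apart in others. They differed by 2 in profile 2, by 4 in profile 16, by 41 in profile 6 and by 201 in profile 9.

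Some scaffolds recurred. Scaffold NW_020229559.1 held profiles 11, 13 and 17, each as a pair of entries, with running numbers 83, 91 and 91 apart. The 3 lower-numbered and the 3 higher-numbered entries stood in the same order. A further pair on that scaffold was also 91 apart and had equal counts in 16 of 24 libraries, so it missed the rule. Profiles 3 and 10 occupied the same pair of scaffolds, NW_020229303.1 and NW_020229459.1. Profiles 14 and 18 shared NW_020229391.1 and NW_020229861.1. In the 6-entry profile, the entries lay on 3 scaffolds, with 3 of them on NW_020229854.1 and 2 on NW_020229490.1. Neighbouring entries of that profile were 2 to 14 running numbers apart.

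Profiles that share a scaffold differed in how alike they were over larvae. Across the 24 larvae, log2 levels of the NW_020229559.1 profiles had Pearson r = 0.030 for 11 and 13, 0.14 for 11 and 17 and 0.38 for 13 and 17, given as a description, and profiles 13 and 17 were scarce enough for counting error to weigh on r. Profiles 3 and 10 had r = 0.43, and profiles 14 and 18 had r = 0.13. The spread of profiles 14 and 18 between larvae (SD of 16.6% and 39.2% of the mean) was below that of counting error (20.1% and 41.3%). Counting error thus weighs on that r as well. Profiles 3 and 4, which also share a scaffold, are near copies of each other in their counts. For comparison, r ran from -0.64 (profiles 2 and 12) to 0.68 (profiles 6 and 12) among profiles that share no scaffold.

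The profiles were not fully separate from each other or from the second block of the tables (the second-listed form of each hairpin). Which arm of the hairpin each block holds is not stated in the labels or file headers. Profiles 3 and 4 had near-equal counts, with profile 3 higher by 3.51% to 8.66% in each of the 24 libraries and r = 0.999 between their log2 levels. Around them stood 3 further first-listed entries within 10% in every library, and the second-listed form of a profile 7 hairpin, with 113096 reads, against 113878 for each entry of profile 4. These 8 entries lay on 6 scaffolds and together took 1.21% ± 0.271 of the counted reads (SD, n = 24), whereas the highest first-listed entry of them alone took 0.158% ± 0.0343. The slopes of the 8 on length were 0.03 to 0.04 log2 units per 1000 µm, with a smallest adjusted p of 0.787 (edgeR). Whether the 8 entries count the same reads was not tested.

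Profile 7 was linked to the most abundant profile as well. Its 9036 reads equalled, in all 24 libraries, the second-listed form of a profile 1 hairpin. The same count is thus first-listed under the profile 7 hairpins and second-listed under a profile 1 hairpin. Likewise the 211 reads of profile 18 equalled the second-listed form of a hairpin on NW_020229224.1, a scaffold that also holds an entry of profile 14. Profiles 14 and 18 thus touched the same 3 scaffolds once that form is counted.

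Entries just outside the rule had counts that differed by a few reads. The nearest pair was equal in 22 of 24 libraries, with 5153 and 5151 reads in all, and the next was equal in 21 of 24. At the low end, profile 17 entered with at least 10 reads in exactly 12 libraries, and the best of the identical sets left out by the filter, a set of 3 entries with 215 reads, reached that count in 9. There were 14 such identical sets, with 36 entries, among the 226 first-listed forms that had reads but failed the filter.

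The second-listed forms, which the rule did not use, differed between hairpins in most profiles, though in some by only a few reads. In 15 of the 18 profiles the hairpins with identical first-listed counts had more than 1 count pattern in their second-listed forms. In the other 3 (profiles 6, 15 and 16) these forms were identical too, in profile 15 on 2 reads in each hairpin. Second-listed totals were 1 and 0 in profile 9, 3 and 0 in profile 10 and 8 and 0 in profile 12. In profiles 5, 8 and 14 some of the hairpins shared a pattern. The widest contrast was in profile 7, where one hairpin had 113096 second-listed reads and the other 401, a ratio of 282. The larger count is the one described above as near those of profiles 3 and 4, and whether its reads belong to this hairpin alone was not tested. In profile 2, whose hairpins are 2 running numbers apart, the totals were 42016 and 626, a ratio of 67.1. In profile 4 they were 308 and 17, a ratio of 18.1. In profiles 1, 11 and 13 they differed by factors of 1.15, 1.06 and 1.13. These ratios compare reads per hairpin form and are no measure of how much each hairpin is transcribed.

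**Figure D1:**
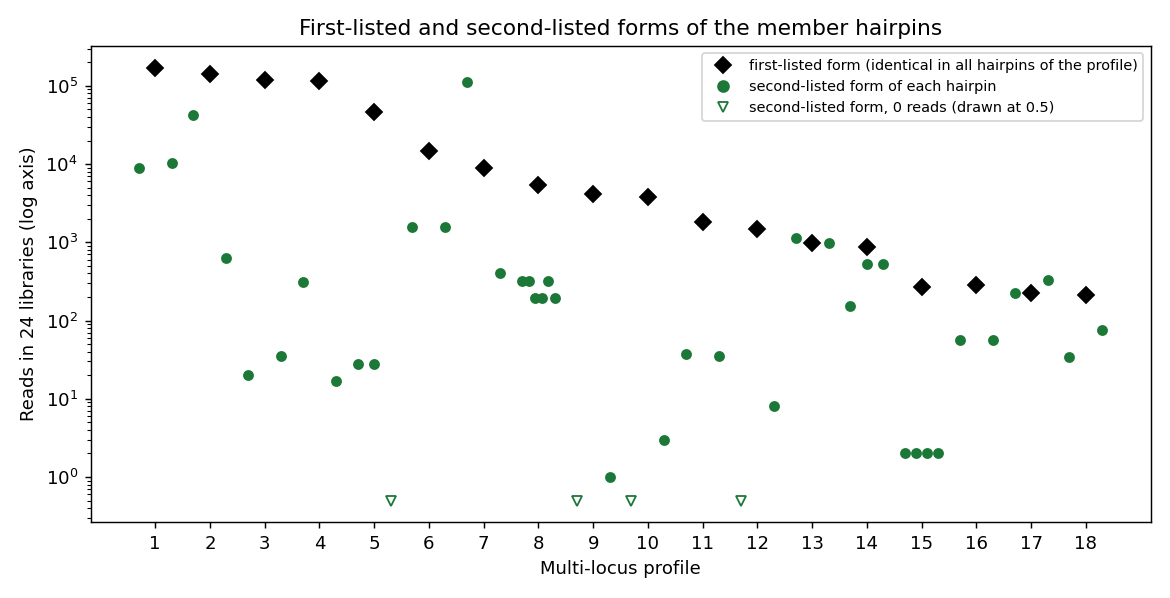
Reads summed over the 24 libraries (log axis) for the first-listed form shared by all hairpins of a profile (black diamonds) and for the second-listed form of each of its hairpins (green circles, open triangles for 0 reads), by profile. The widest spread between hairpins of a profile is 113096 against 401 reads in profile 7, and at least 1 second-listed form exceeds the first-listed form in profiles 7, 13 and 17.

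In 3 profiles at least 1 hairpin had more second-listed than first-listed reads. The larger second-listed form had 1252% of the first-listed reads in profile 7 (the form with a count near those of profiles 3 and 4), 149% in profile 17 and 115% in profile 13. Both hairpins of profile 13 were of this kind, whereas the other hairpin of profile 7 had 401 second-listed reads and the other hairpin of profile 17 had 224, equal to its first-listed total. At the other end, the second-listed forms had at most 3 reads over all libraries in 10 of the 44 hairpins, 4 of them with 0 reads. Profile 9, with 4110 first-listed reads, had 1 and 0 second-listed reads in its hairpins, and profile 10, with 3770, had 3 and 0.

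The profiles spanned nearly 3 orders of magnitude in level, and none was among the most abundant miRNAs of the larvae. Small RNA reads cover the whole molecule, so levels were not divided by length. Profile 1 had the 49th highest mean level of 336 tested forms, 2173 ± 454 CPM (SD, n = 24), and profile 18 was the 334th, 2.71 ± 1.06 CPM. Levels of the 5 highest profiles averaged 728 to 2173 CPM, and 11 profiles averaged under 100 CPM. The profile with 6 entries averaged 61.6 CPM and the profile with 4 entries 3.78 CPM, so the profiles with most entries were not the most abundant.

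The median profile had a mean level of 54.1 CPM, against 79.5 CPM over the 189 other first-listed forms that passed the filter. Because each entry is counted, the 44 entries together took 1.78% ± 0.242 of the reads (SD, n = 24), and the 18 profiles counted once took 0.850% ± 0.118 of a total that also counts every identical set once. By class, the share of the 44 entries was 1.63% to 2.25% in the smallest larvae (median 1.99%), 1.40% to 1.90% in the middle larvae (median 1.73%) and 1.35% to 2.08% in the largest (median 1.67%). The 3 ranges overlap.

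**Figure D2:**
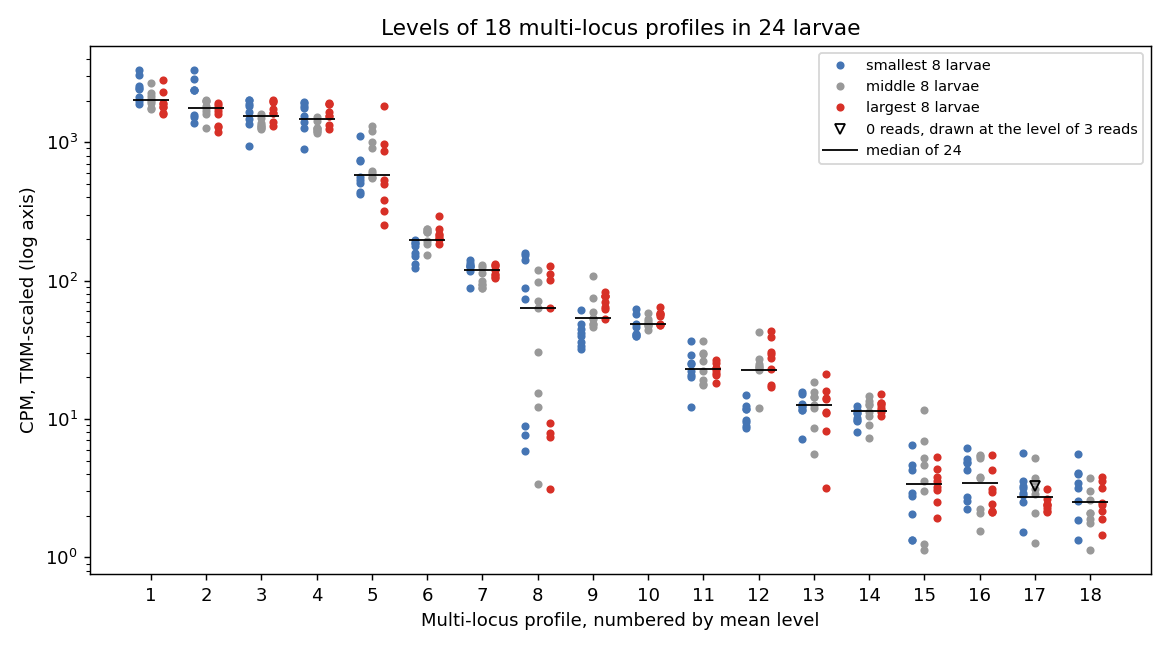
Level of each multi-locus profile in each larva (CPM after TMM scaling, log axis), with the smallest 8, middle 8 and largest 8 larvae in separate columns and a bar at the median of all 24. Profile 8 runs from 3.13 to 158 CPM, whereas profiles 7 and 10 stay within a 1.61-fold range.

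The spread between larvae differed widely from profile to profile. The coefficient of variation (CV, the SD as a percent of the mean) was 13.8% in profile 10, 14.2% in profile 7 and 16.6% in profile 14. It was 50.7% in profile 5, 60.7% in profile 15 and 87.8% in profile 8. Counting error alone gives a CV of 35.0% to 41.3% at the levels of profiles 15 to 18, so that the observed 39.2% to 41.7% in profiles 16, 17 and 18 is about what counting gives. In profile 14 the observed 16.6% is below the 20.1% that counting gives, so no spread beyond counting error was detectable, and in profile 13 counting gives 19.3% of an observed 31.9%. For profiles 5 and 8 counting gives 2.52% and 8.66%. The median CV of the 18 profiles was 29.7%, against 27.5% for the other first-listed forms, with quartiles of 21.3% and 35.7%. Above 100 CPM it was 20.2% in 7 profiles and 23.1% in 86 other forms, and below 100 CPM it was 39.2% in 11 profiles and 32.2% in 103 others.

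The 6-entry profile was the most uneven, with a 50.3-fold range between larvae. Its level was 5.83 to 158 CPM in the smallest larvae (median 80.8), 3.37 to 118 CPM in the middle larvae (median 46.8) and 3.13 to 127 CPM in the largest (median 36.3). In 10 larvae it was 3.13 to 15.3 CPM, in 1 larva it was 30.5 CPM, and in the other 13 it was 63.1 to 158 CPM. The 11 larvae up to 30.5 CPM were 3 of the smallest, 4 of the middle and 4 of the largest class, and 4 of the set of 9 and 7 of the set of 15. Its level had no detectable relation to length, with a slope of -0.30 log2 units per 1000 µm (SE 0.35) and an adjusted p of 0.644 by edgeR.

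The second-listed forms of the 6 hairpins fell into 2 patterns of 3 hairpins each, with 317 and 192 reads in all. Both patterns were scarce where the first-listed form was scarce, with at most 2 reads in the 10 lowest larvae. Their yield per first-listed read went with the library set. In the set of 9, the commoner pattern had 0 to 83.3 reads per 100 first-listed reads (median 27.5, over 8 larvae with at least 10 first-listed reads), and in the set of 15 it had 0 to 5.19 (median 2.62, 14 larvae). For the scarcer pattern the medians were 6.76 and 2.92. The ranges overlap, and the part of library depth in this was not tested.

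**Figure D3:**
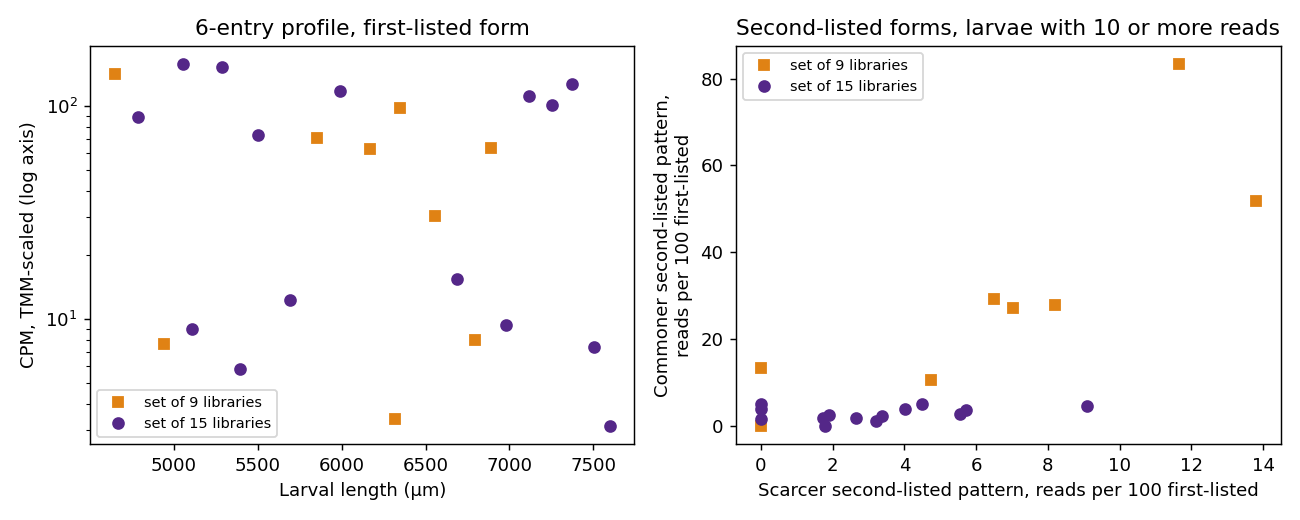
Left, level of the 6-entry profile (CPM after TMM scaling, log axis) by larval length in µm. Right, reads of its commoner against its scarcer second-listed pattern per 100 first-listed reads, for larvae with at least 10 first-listed reads; squares are the set of 9 libraries and circles the set of 15. Larvae near 10 CPM and near 100 CPM occur at all lengths, and 7 of the 8 squares exceed 10 on the vertical axis while no circle exceeds 5.19.

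Profiles 5 and 15 were the next most uneven. Profile 5, with entries on 3 scaffolds, was 420 to 1113 CPM in the smallest larvae (median 545), 548 to 1314 CPM in the middle larvae (median 765) and 251 to 1839 CPM in the largest (median 520). Its median was 915 CPM in the set of 9 libraries and 533 CPM in the set of 15. Its level had r = -0.62 with log10 of the library's reads, and the parts of set and depth were not tested. Its slope on length was 0.15 (SE 0.15, adjusted p = 0.598, edgeR), and without larva 16, the one at 1839 CPM, it was -0.04. Profile 15, with 4 entries on 4 scaffolds, was 1.12 to 11.6 CPM over the 24 larvae with a median of 3.38 CPM. These 2 extremes are 1 and 11 reads, so counting error weighs on the range. Its slope was 0.03 (SE 0.16, adjusted p = 0.897, edgeR), with 0.96 in the set of 9, on counts of 1 to 11 reads, and -0.17 in the set of 15.

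The relation of the profiles to larval length was then examined, the measure by which the labels distinguish the larvae and which the rule did not use. Of the 18 profiles, 3 rose with length (6, 9 and 12) and 2 fell (1 and 2), by edgeR's quasi-likelihood test at an adjusted p under 0.05 (Benjamini-Hochberg over all 336 tested forms). Among all tested forms, with each identical set counted once, 11.6% rose and 9.27% fell. A call in either direction was made for 5 of 18 profiles (27.8%) against 20.9% of that background. Without larva 22 (numbered in the order of the series) neither falling call held. Slopes are given in log2 units per 1000 µm.

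Profile 12 had the steepest rise. Its level was 8.60 to 14.8 CPM in the smallest larvae (median 10.8), 12.02 to 42.7 CPM in the middle larvae (median 23.99) and 16.9 to 43.4 CPM in the largest (median 28.6). Every one of the 8 largest larvae lay above every one of the 8 smallest, which held for 1 of the 18 profiles and for 2.32% of all tested forms with each identical set counted once, and the medians of the smallest and middle classes were farther apart than those of the middle and largest. The slope was 0.61 (SE 0.11, adjusted p = 0.00033, edgeR), or 3.46-fold on the fitted line over the 2949.99 µm between the shortest and the longest larva. It was 0.57 in the set of 9 libraries and 0.63 in the set of 15, and the call held without any 1 larva, with adjusted p up to 0.00177. One of its 2 hairpins is listed as NW_020229300.1_12464 and the other lies on scaffold NW_020229769.1.

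Profile 9 rose as well. It was 32.0 to 61.7 CPM in the smallest larvae (median 40.8), 46.1 to 108 CPM in the middle larvae (median 53.2) and 52.7 to 82.2 CPM in the largest (median 73.2). The largest and smallest classes overlapped through 1 small larva at 61.7 CPM. The slope was 0.37 (SE 0.071, adjusted p = 0.000427, edgeR), or 2.12-fold over the span, and the call held without any 1 larva, with adjusted p up to 0.00276. The slopes in the sets of 9 and of 15 libraries were 0.62 and 0.27, and their difference was not tested. Both hairpins, one of them NW_020229226.1_2989, are on a single scaffold.

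Profile 6 rose least. It was 123 to 195 CPM in the smallest larvae (median 168), 154 to 236 CPM in the middle larvae (median 223) and 184 to 293 CPM in the largest (median 209), so that the middle class had the highest median. The slope was 0.17 (SE 0.059, adjusted p = 0.039, edgeR), or 1.43-fold over the span. This call did not hold without any one of larvae 1, 3, 4, 7, 10, 14, 15, 17, 21, 22, 23 or 24, with slopes of 0.12 to 0.16 and adjusted p of 0.0507 to 0.151. It was also lost with scaling by library total (adjusted p = 0.128) or upper quartile (0.179), with no filter (0.137) and with library set and log10 reads as covariates (0.0691), all by edgeR, and 8 of the 17 alternatives other than leaving out 1 larva kept it. Its second-listed forms, also identical in both hairpins, had a slope of 0.19 (SE 0.094, adjusted p = 0.158, edgeR).

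**Figure D4:**
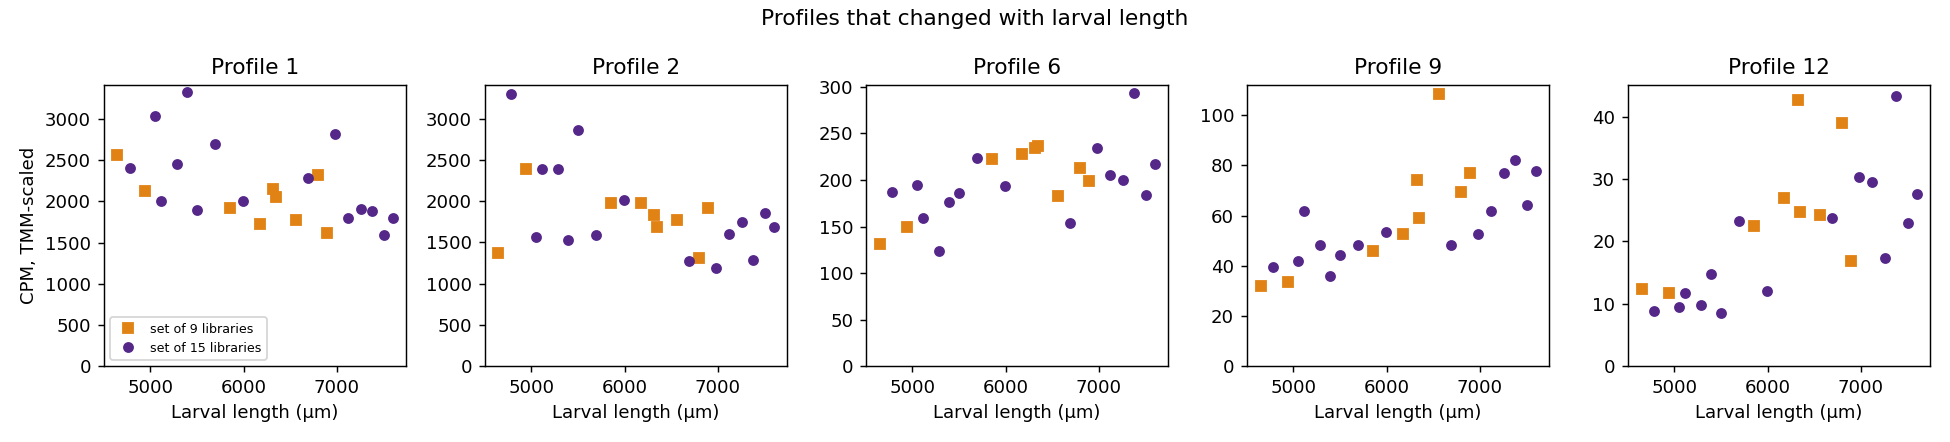
Level of the 5 profiles that changed with length (CPM after TMM scaling, axis from 0) in each larva against larval length in µm; squares are the set of 9 libraries and circles the set of 15. Class medians in the smallest and largest larvae are 2433 and 1846 CPM in profile 1, 2389 and 1641 CPM in profile 2, 168 and 209 CPM in profile 6, 40.8 and 73.2 CPM in profile 9 and 10.8 and 28.6 CPM in profile 12.

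The 2 falling profiles were the 2 most abundant. Profile 1, on scaffolds NW_020229492.1 and NW_020229838.1 and listed among others as NW_020229492.1_26861, was 1900 to 3326 CPM in the smallest larvae (median 2433), 1729 to 2696 CPM in the middle larvae (median 2025) and 1592 to 2819 CPM in the largest (median 1846). The classes overlapped. Its slope was -0.17 (SE 0.058, adjusted p = 0.0411, edgeR), with -0.20 in the set of 9 and -0.19 in the set of 15. The call did not hold without any one of larvae 2, 4, 16 or 22, with slopes of -0.17 to -0.16 and adjusted p of 0.0588 to 0.0677. With log10 of the library's reads as a covariate the slope was -0.14 (adjusted p = 0.0532, edgeR), and with the library set as well it was -0.12 (adjusted p = 0.218, edgeR), neither of which passed.

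The second-listed forms of the profile 1 hairpins did not pass. They had 9036 and 10398 reads in the 2 hairpins, and the slope was -0.03 for the scarcer (SE 0.052, adjusted p = 0.787, edgeR). For the other it was -0.02, with an SE of 0.055 and an adjusted p of 0.849 by edgeR. The scarcer is also the count of profile 7. Whether the slopes of the forms differ was not tested.

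Profile 2, on scaffold NW_020229841.1 and listed among others as NW_020229841.1_37659, was 1368 to 3301 CPM in the smallest larvae (median 2389), 1271 to 2014 CPM in the middle larvae (median 1799) and 1187 to 1918 CPM in the largest (median 1641). The smallest larvae varied most, with a class SD of 687 CPM against 251 CPM in the middle class and 279 CPM in the largest. Its slope was -0.21 (SE 0.072, adjusted p = 0.039, edgeR), with -0.10 in the set of 9 and -0.27 in the set of 15. The call did not hold without any one of larvae 3, 7, 19, 20 or 22, with slopes of -0.21 to -0.18 and adjusted p of 0.0511 to 0.0882.

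In profile 2 the second-listed forms set the hairpins apart, and 1 of the 2 changed with length. The second-listed form with 42016 reads averaged 619 ± 156 CPM in the smallest larvae, 437 ± 252 CPM in the middle larvae and 380 ± 84.2 CPM in the largest (SD, n = 8 each). It fell, at -0.33 per 1000 µm (SE 0.11) with an adjusted p of 0.039 by edgeR, a call that did not hold without any one of larvae 2, 7, 16, 20 or 22, with adjusted p up to 0.0651. The form with 626 reads averaged 8.45 ± 3.59, 12.7 ± 5.40 and 8.04 ± 3.53 CPM in the same order, and its slope was -0.02 (SE 0.14, adjusted p = 0.935, edgeR). The difference between these slopes was not tested, and the scarcer form has the wider SE. Of the 18 second-listed forms of member hairpins that passed the filter, which hold 14 distinct counts, this was the 1 that changed with length, against 20.4% of all 103 second-listed forms called in either direction.

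**Figure D5:**
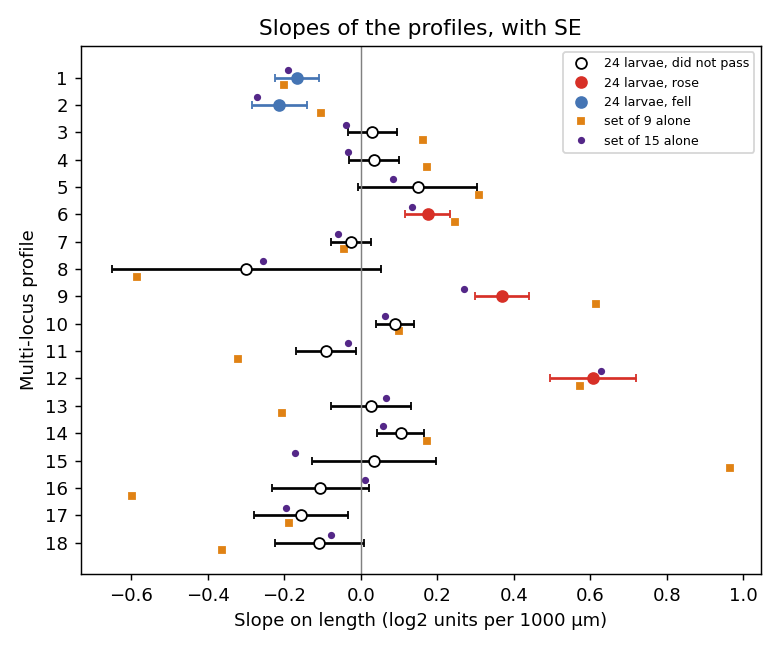
Slope of each profile on larval length (log2 units per 1000 µm) with its SE in all 24 larvae, filled where it passed at an adjusted p under 0.05 (red rose, blue fell), with the slopes in the set of 9 (squares) and the set of 15 libraries (small circles) fitted alone. Profiles 9 and 12 have slopes of 0.37 and 0.61, and profile 8 has the widest SE, 0.35.

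The other 13 profiles did not pass, with slopes of -0.30 to 0.15, SEs of 0.050 to 0.35 and adjusted p of 0.236 to 0.897 (edgeR). Profiles 10 and 14, the steadiest apart from profile 7, came nearest by p. The slope of profile 10 was 0.09 with an SE of 0.050 (adjusted p = 0.236, edgeR), and that of profile 14 was 0.10 with an SE of 0.061 (adjusted p = 0.259, edgeR). Profile 10 was 39.6 to 62.2 CPM in the smallest larvae (median 43.6), 43.6 to 58.0 CPM in the middle larvae (median 49.1) and 47.3 to 63.8 CPM in the largest (median 56.2). Profile 3 was near level at 0.03 (SE 0.063, adjusted p = 0.802, edgeR), as was profile 7 at -0.03 (SE 0.052, adjusted p = 0.787, edgeR).

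Those profiles showed other features across larvae. Profile 3 had medians of 1746, 1324 and 1687 CPM in the smallest, middle and largest larvae, and profile 4 had 1658, 1251 and 1604 CPM, so both medians were lowest in the middle class. Profile 7 had medians of 127, 96.6 and 116 CPM in the smallest, middle and largest larvae. The middle class holds 5 of the 9 libraries of the smaller set, in which the median of profile 7 was 94.2 CPM, against 127 CPM in the set of 15. The level of profile 7 also had r = 0.65 with log10 of the library's reads. The parts of the library set and of depth in the middle class values were not tested.

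Over all 18 profiles the median slope was 0.03, against 0.02 for all 336 tested forms, and 10 of the 18 slopes were positive, against 53.9% of all forms.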

How the data were processed

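Small RNA libraries were made from 1000 ng of total RNA of each of 24 single larvae, per the labels' protocols, and bcl2fastq 2.20 and Trim Galore 0.6.7 are named in the submitters' processing notes. Which counter, miRNA predictor and genome build were used is not stated in the labels or file headers. Each file as deposited holds, by its header, a read count per mature form and hairpin and an RPM value (reads scaled to 1000000 counted reads), which equalled the count over the library total within 0.005. The files list 918 forms of 459 hairpin names in 2 blocks, called first-listed and second-listed. Names hold a scaffold and a running number, and 0 of 459 matched the RefSeq gene table.

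From the counts, a filter of 10 or more reads in 12 or more libraries was applied (336 forms, 99.97% of reads), scaled by TMM and fitted with edgeR 4.0.16 in R 4.3.3 (quasi-likelihood F test, slope on length, Benjamini-Hochberg adjustment over 336 forms). Identical sets were found over first-listed forms, and levels are TMM-scaled CPM. Each larva is 1 replicate. Profiles given in full were those past the threshold, the 3 most abundant, the one with most entries, and those with extreme spread. The members and rules were chosen with earlier results of these data known. On simulated data for the 336 forms, slopes of 0.2, 0.4 and 0.8 were recovered in 10%, 65% and 95% of 20 changed forms each. There were 0 false among 34 calls, and 1 call was made where no form was changed. The simulated forms were drawn independently of each other, without the library split or identical entries, so these rates need not hold here. The alternatives tried were other scalings and filters, covariates for depth and library set, each set alone, limma-voom (limma 3.58.1), DESeq2 1.42.0, a rank correlation with permutation, and leaving out each larva.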

Additional observations from a re-analysis of the deposited data

Results flagged for a closer look

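Within each size class of 8 larvae, the highest or lowest larva was compared with the others, and 6 of 57 sets had a larva whose gap to its nearest neighbour was above Dixon's 95% critical value for 8. Chance gives about 1 in 20 for independent sets. These sets share larvae, and profiles 3 and 4 are near copies, so the count of flagged sets is a description and no test. In profile 5, the larva of 5395.82 µm had 1113 CPM, above the 420 to 746 CPM of the other smallest larvae, and the larva of 7598.06 µm had 1839 CPM, above the 251 to 963 CPM of the other largest larvae. Without the larva of 7598.06 µm the slope of profile 5 was -0.04, against 0.15 with it. In profile 6, the larva of 7371.47 µm had 293 CPM, above the 184 to 234 CPM of the other largest larvae, and without it (larva 15) the profile had a slope of 0.12 and did not pass. In profile 7, the larva of 4648.07 µm had 88.6 CPM, below the 118 to 141 CPM of the other smallest larvae. In profile 9, the larva of 6559.34 µm had 108 CPM, above the 46.1 to 74.1 CPM of the other middle larvae, and the rise was called with and without it. In profile 13, the larva of 5284.36 µm had 7.14 CPM, below the 11.5 to 15.5 CPM of the other smallest larvae.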

How the results depend on the processing

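The rise of profile 9 was called in all 41 alternatives and that of profile 12 in 40, the exception being the set of 9 libraries alone (adjusted p = 0.0984, edgeR). The calls of profiles 1, 2 and 6 kept their sign in all alternatives but were lost in 12, 8 and 21 of them. The number of falling profiles was 1 with upper-quartile scaling, with no filter, with log10 reads as a covariate, with library set and log10 reads, in the largest against the smallest class, in the set of 15 alone, without the shortest and longest larva, with limma-voom and with the rank correlation. In the set of 9 alone 0 fell, 1 rose and 19 of all forms were called. Leaving out 1 larva gave 0 to 2 falling and 2 to 3 rising profiles. Scaling by library total alone gave 24 rising and 41 falling forms, against 39 and 30 with TMM.

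Leaving out 1 larva turned the sign of 5 profiles, none of them called, which are 3, 4, 5, 13 and 15. Slopes ran from -0.01 to 0.06 in profile 4, from -0.04 to 0.20 in profile 5 and from -0.07 to 0.07 in profile 13. The sets of 9 and 15 libraries gave 0.17 and -0.03 in profile 4, -0.21 and 0.07 in profile 13, -0.60 and 0.01 in profile 16, 0.16 and -0.04 in profile 3, and 0.96 and -0.17 in profile 15. Profile 3 had -0.0079 by library total, -0.0090 by upper quartile, -0.035 with set and reads, -0.038 in the set of 15 and -0.046 without the shortest and longest larva, and -0.018 to 0.055 leaving out 1 larva. Profile 15 had -0.0085 with log10 reads, -0.051 with set and reads, -0.022 between classes, -0.17 in the set of 15, -0.0015 without the shortest and longest larva, and -0.031 to 0.097 leaving out 1 larva. Profile 7 had 0.00082 with log10 reads and profile 8 had 0.065 with set and reads. The cause was not tested.

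Asking for 10 reads in all 24 libraries left 23 entries in 11 profiles, 1 read in 1 library gave 80 in 32, and the second-listed block held 11 in 5. A match within 10%, chosen after seeing the data, gave 59 entries in 22 profiles. The median ratio of upper to lower quartile over larvae was 1.40. Counting each identical set once gave the profiles 0.850% of reads. No paired analysis was possible because the larvae form 1 group. Counting error limits profiles 13 to 18.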
